A study of Mus musculus with 49 samples.

Results

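The step from 4 to 7 days of monolayer culture was described by comparing 3 libraries of hepatocytes cultured for 7 days with 3 libraries of hepatocytes cultured for 4 days, which are 6 of the 49 libraries of the series. Cultures treated with DMSO or verteporfin were left out of the comparison. All 6 libraries came from hepatocytes of WT C57BL/6J mice aged 10 weeks, isolated by collagenase digestion, separated from non-parenchymal cells by centrifugation and grown on collagen in medium with 20 ng/mL EGF, and no other agent differed between the groups. The study followed how such hepatocytes lose their mature state and become expandable progenitor-like cells, and the comparison asks which genes changed between these 2 time points. RNA was counted by CEL-seq2, a 3′ end method in which each molecule carries a unique molecular identifier (UMI).

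Hepatocytes make most proteins of the blood plasma and most enzymes of bile acid, drug and amino acid metabolism. After plating they lose many of these functions, spread, and enter the cell cycle in response to EGF, whose receptor is abundant on them. Genes of the bile duct epithelium, of the cytoskeleton and of the extracellular matrix are known to be turned on in such cultures.

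The libraries held 1701461 to 2282989 counts at 4 days and 1797032 to 2746168 at 7 days. Of 46078 genes listed, 21334 had a count in these libraries and 11073 were abundant enough to test. Levels are given as CPM, the count per 1000000 counts, scaled with TMM factors, in the order of replicates 1, 2 and 3. Spearman's correlation between replicates ranged from 0.748, for 7 days replicates 1 and 2, to 0.936. The hepatocyte genes Alb and Ttr, which encode albumin and transthyretin, lay between 303.5 and 842.8 CPM in every library. Of 24 hepatocyte markers, however, only 12 were abundant enough to test. G6pc had 0 counts in every library, and Cyp2e1 and Cyp3a11 had 4 and 5 counts at 4 days and 0 at 7 days. Scaled over all time points, the hepatocyte markers summed to 46580 to 53950 CPM in fresh hepatocytes and to 3899 to 5927 CPM at 7 days. Summed markers of other liver cells are given below. The macrophage genes C1qa, C1qb, C1qc, Marco, Vsig4 and Tyrobp had 0 counts in replicate 3 at 4 days and at 7 days, whereas Marco stood at 14.87 and 16.57 CPM in replicate 1. Other macrophage markers were present in replicate 3. Cd68 was at 3.605, 3.527 and 6.195 CPM at 4 days and at 3.233, 2.265 and 1.126 CPM at 7 days. Csf1r was at 7.662, 5.038 and 1.239 CPM and then at 12.12, 1.699 and 1.501 CPM. Lymphocyte and erythroid genes were near 0.

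A gene was said to have passed when the adjusted p of edgeR's quasi-likelihood test was under 0.1, and was called when its log2 fold change was also over 2 in either direction. By these thresholds 80 genes (0.722% of those tested) were called. They comprised 33 called higher (0.298%) and 47 called lower (0.424%) at 7 days. At any fold, 39 genes passed higher (0.352%) and 51 passed lower (0.461%). Each of the 80 called genes lay outside the range of the other group and changed the same way in 3 of 3 pairs of equally numbered replicates. Over all genes tested, 7.16% lay above and 7.93% lay below the other group in every library, so that lack of overlap alone was common. The median log2 fold change of all genes tested was 0.07.

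Equally numbered libraries of the 2 times deviated together from their group means, and the replicate number was therefore also entered as a block. The block raised the number of genes called to 174 (1.57%) and the number that passed to 528 higher (4.77%) and 491 lower (4.43%). All 90 genes that passed without the block also passed with it, and 79 of the 80 calls were kept. The exception was Camk2n1, a kinase inhibitor, whose log2 fold change was 2.03 without the block and 2.00 with it, just inside and just outside the fold threshold. Without the block the counts depended on single libraries. With 4 days replicate 3 left out 0 genes were called or passed in edgeR, where 811 had an unadjusted p under 0.05. With 4 days replicate 1, 4 days replicate 2 or 7 days replicate 3 left out 28, 30 and 26 genes were called, and with 7 days replicate 1 left out 130. With the block, leaving out replicate pair 1, 2 or 3 gave 219, 324 and 200 calls, which held 78, 78 and 76 of the 80. Results below therefore give the count without the block first and the count with the block second. The shares of all genes tested that passed with the block, 4.77% higher and 4.43% lower, are the background for each list.

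**Figure D1:**
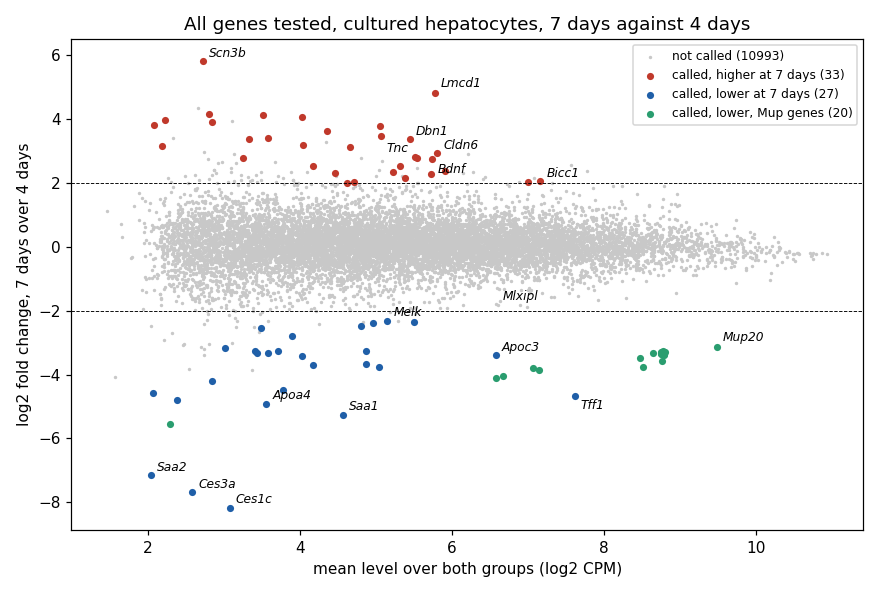
Log2 fold change of 7 days over 4 days (vertical axis) against the mean level in log2 CPM (horizontal axis) for the 11073 genes tested. Red points are the 33 genes called higher, blue points 27 genes called lower and green points the 20 Mup genes called lower, and dashed lines mark the fold threshold. Most Mup genes lie together at high levels, apart from 1 at a low level, and the genes with the largest falls, Ces1c, Ces3a and Saa2, had no count at 7 days.

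The major urinary protein (Mup) cluster held 20 of the 47 genes called lower. Mup genes encode small lipocalins that the liver secretes to carry pheromones into urine, and they lie side by side on chromosome 4. All 21 Mup genes were tested, 20 were called lower and with the block all 21 were. The list was assembled after the values were seen. Many of these genes have nearly identical sequences, so reads may be shared between them and the 20 calls are not independent. Some had nearly the same level: Mup1, Mup2, Mup7, Mup10, Mup13 and Mup14 lay between 682.3 and 711.2 CPM in 4 days replicate 1 and between 45.67 and 48.9 CPM in 7 days replicate 1. Others, such as Mup20, Mup3, Mup4, Mup5 and Mup21, had levels of their own.

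Short stretches around the TATA string of 4 Mup genes are shown because these genes fell together. They were read from RefSeq promoter windows on GRCm38.p6, which held 14 of the 21 genes, and are those of the members with the smallest p among the 11 that carry TATATAA in the last 60 bases before the RefSeq start. TATATAA is in capitals. It occurred at this place in 0.992% of all 27025 windows, which describes the letters and not their use. Annotated starts of these genes differ between RefSeq and GENCODE. All 4 stretches lie on the minus strand, Mup18 at chr4:61674105-61674134, Mup3 at chr4:62087318-62087340, Mup4 at chr4:59960679-59960708 and Mup15 at chr4:61439712-61439741.
Mup18: gaacccagagagTATATAAggacaagcaaa
Mup3: gaaaccagagagTATATAAggac
Mup4: gaacccagagcaTATATAAagacaagcaaa
Mup15: gaacccagagagTATATAAggacaagcaaa

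Mup20, also known as darcin, had the highest counted level of the members, though those that share reads cannot be ranked against it. It stood at 1288, 781.9 and 1771 CPM at 4 days and at 121.2, 105.9 and 211.3 CPM at 7 days. Its log2 fold change was -3.13 ± 0.43 (SE, adjusted p = 0.0226, edgeR). Mup3 stood at 780.1, 476.6 and 786.7 CPM and then at 52.13, 30.57 and 68.31 CPM, with a log2 fold change of -3.75 ± 0.42 (adjusted p = 0.0226). For both genes every library at 7 days was below every library at 4 days. Summed over the cluster, the level was 12130, 10450 and 16320 CPM at 4 days and 803, 940.4 and 1987 CPM at 7 days. The non-coding gene Gm13775, which lies between Mup19 and Mup5, was called lower too, and its reads may not be separable from theirs.

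Secreted plasma proteins came next. Of 49 plasma protein and apolipoprotein genes tested, 8 were called lower and 0 passed higher. With the block 15 (30.6%) passed lower and 2 (4.08%) passed higher. The list's median log2 fold change was -0.46. The list holds Mup3 and Mup20, described above.

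Saa1, an acute-phase apolipoprotein, was at 65.8, 36.27 and 36.55 CPM at 4 days and at 2.021, 0.5662 and 0.7506 CPM at 7 days. Its mean fell 41.53-fold, with a log2 fold change of -5.27 ± 0.59 (adjusted p = 0.0226). Its neighbour Saa2 was at 13.07, 5.542 and 6.195 CPM and had 0 counts in all 3 libraries at 7 days, which makes it at least 19.03-fold lower, taking 3 counts over the group as the floor. Both genes left no overlap between the times.

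The lipoprotein genes Apoa4 and Apoc3 fell. Apoa4, a chylomicron and HDL component, went from 27.49, 19.65 and 21.68 CPM to 1.212, 0 and 0.7506 CPM. Apoc3, which slows the clearance of triglyceride, went from 180.3, 117.4 and 225.5 CPM to 32.33, 5.096 and 11.63 CPM, a log2 fold change of -3.40 ± 0.64 (adjusted p = 0.0727). The acute-phase gene Orm1 and the protease inhibitor gene Serpina3k were called lower as well, with log2 fold changes of -4.50 and -3.66. Serpina3k has close paralogs, so its count may include theirs.

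Other members did not pass. Alb was at 563.8, 598.5 and 762 CPM at 4 days and at 542.4, 441 and 553.2 CPM at 7 days, and its groups did not overlap, but its log2 fold change of -0.32 did not pass (adjusted p = 0.793). Ttr overlapped between the groups and had a log2 fold change of -0.59. Afp, the fetal counterpart of albumin, was at 7.211, 7.053 and 9.292 CPM and then at 20.21, 24.91 and 24.4 CPM, and it passed with the block (adjusted p = 0.0239) and not without it (adjusted p = 0.194).

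Enzymes of mature hepatocytes gave few but large calls. Ces1c and Ces3a, carboxylesterases that hydrolyse drugs and lipid esters, were at 13.97, 15.11 and 21.68 CPM and at 14.42, 11.08 and 10.53 CPM at 4 days and had 0 counts in all libraries at 7 days. They were at least 38.95-fold and at least 27.65-fold lower. Abcb11, the bile salt export pump, was at 39.21, 12.59 and 37.79 CPM and then at 4.446, 1.699 and 1.877 CPM (log2 fold change -3.43 ± 0.62, adjusted p = 0.0603). These 3 genes were the only ones of 37 phase II conjugation and transport genes that passed without the block, and with it 4 passed lower and 2 passed higher. Abcc4, a basolateral efflux pump, was among those higher with the block, with a log2 fold change of 1.75 without it.

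Of 32 genes of amino acid breakdown and the urea cycle, 2 were called lower, and with the block 10 (31.2%) passed lower and 0 higher. The 2 were Uox, urate oxidase, and Hao1, a peroxisomal glycolate oxidase. Uox was at 16.68, 23.68 and 17.35 CPM and then at 2.021, 2.831 and 1.126 CPM (log2 fold change -3.27 ± 0.52, adjusted p = 0.0375). Tdo2, which opens the ring of tryptophan, and Mat1a, the liver S-adenosylmethionine synthetase, just missed without the block (adjusted p = 0.106 and 0.104) and passed with it (adjusted p = 0.00348 and 0.00312).

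Mlxipl, which encodes the glucose-responsive factor ChREBP, fell by less than the fold threshold, from 140.2, 148.1 and 158.6 CPM to 48.09, 37.93 and 42.41 CPM (log2 fold change -1.80 ± 0.32, adjusted p = 0.0594). Among hepatocyte transcription factors 0 of 33 passed without the block, with 3 higher and 1 lower at an unadjusted p under 0.05 and 0 in DESeq2 or limma-voom, and the list's median log2 fold change was 0.43. With the block 1 passed higher, Cebpa, and 2 passed lower, Nfil3 and Creb3l3. Hnf4a, the central regulator of hepatocyte genes, was at 240.2, 223.2 and 281.9 CPM and then at 413.4, 257 and 335.9 CPM (adjusted p = 0.727). Of 54 cytochrome P450 genes 13 were abundant enough to test, 0 passed without the block (3 higher and 3 lower at an unadjusted p under 0.05, and 1 higher and 2 lower in DESeq2) and 3 passed higher and 3 lower with it (23.1% each way, against 4.77% and 4.43% of all genes). Cyp2c68, of the drug-metabolising Cyp2c family, was called lower with the block only, at 8.563, 11.59 and 17.35 CPM and then at 0.4041, 1.699 and 2.252 CPM, and Cyp2d22 passed higher with the block only, at 20.28, 28.72 and 39.03 CPM and then at 44.86, 77.57 and 102.1 CPM. Cyp3a11, Cyp8b1 and Cyp2e1 were under 2 CPM in every library.

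Further genes were called lower that are in none of the liver lists above. Tff1, a trefoil peptide of gastric mucus, was at 317.3, 208.6 and 604 CPM at 4 days and at 26.27, 10.19 and 7.131 CPM at 7 days (log2 fold change -4.68 ± 0.63, adjusted p = 0.0226). Dhrs9, a retinol dehydrogenase, went from 73.91, 52.9 and 57.61 CPM to 6.87, 3.963 and 2.627 CPM. In the opposite direction, Dhrs3, which turns retinaldehyde back into retinol, went from 4.507, 6.549 and 5.575 CPM to 99.42, 23.21 and 62.68 CPM (log2 fold change 3.47 ± 0.58, adjusted p = 0.0451). The epithelial genes Crct1 and Slpi, a protease inhibitor of mucosal fluids, were also called lower. The adhesion gene Ceacam1, which hepatocytes carry on their canalicular face, went from 31.1, 25.69 and 21.68 CPM to 2.829, 3.397 and 4.879 CPM.

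Among the genes called higher, Lmcd1, a LIM-domain cofactor, had the smallest p. It was at 4.056, 5.542 and 1.239 CPM at 4 days and at 110.3, 78.13 and 128.4 CPM at 7 days (log2 fold change 4.82 ± 0.54, adjusted p = 0.0226). Bdnf, a neurotrophin, was at 13.52, 13.6 and 14.25 CPM and then at 75.98, 117.2 and 84.07 CPM (log2 fold change 2.74 ± 0.36, adjusted p = 0.0226). The 7-day libraries of both genes were all far above the 4-day libraries.

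Other genes best known from neurons or neural progenitors were among those called. Dbn1, an actin-binding protein of dendritic spines, was at 8.112, 8.061 and 6.814 CPM and then at 65.88, 48.12 and 125 CPM (log2 fold change 3.37 ± 0.47). Nes, the intermediate filament nestin, was at 10.37, 9.572 and 10.53 CPM and then at 44.05, 49.82 and 32.28 CPM (log2 fold change 2.04 ± 0.37, adjusted p = 0.0617). Scn3b, a sodium channel subunit, had 1 count at 4 days and 94 counts at 7 days, so its level at 4 days is poorly known. Dlx1, a homeobox gene, had 4 and 89 counts. These genes were grouped after their values were seen, and the group was not tested.

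**Figure D2:**
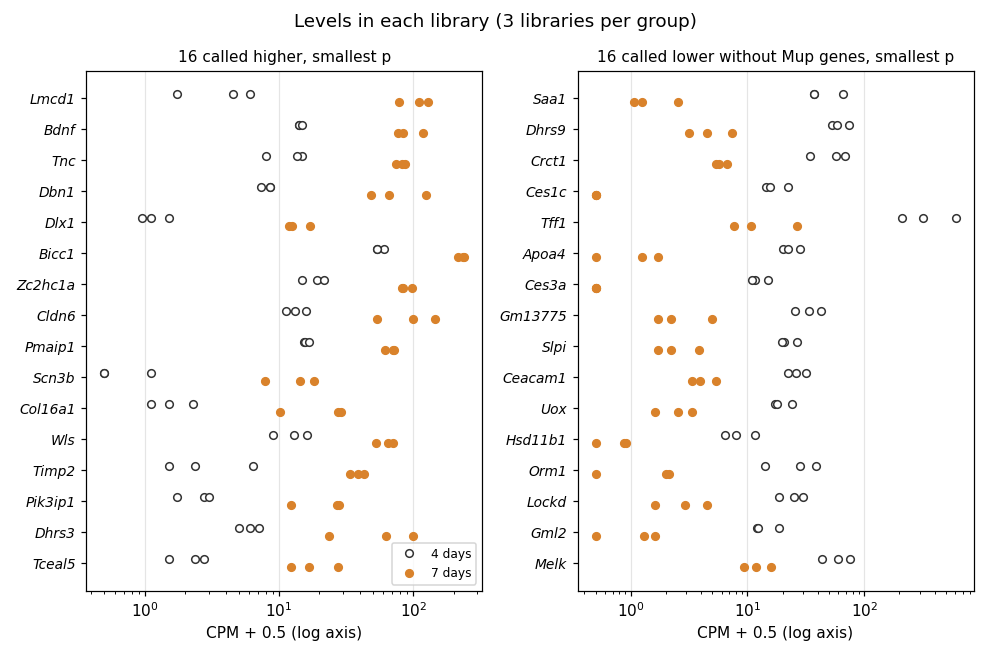
CPM plus 0.5 on a log axis for each library at 4 days (open circles) and 7 days (filled circles), for the 16 genes called higher and the 16 genes called lower, Mup genes left out, with the smallest p. For none of these genes do the 2 groups overlap, and points at 0.5 are libraries with no count.

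Matrix genes that passed without the block were higher. Of 34 laminin, collagen and integrin genes tested 2 were called higher and 0 passed lower. With the block 13 passed higher and 1 lower (38.2% and 2.94%, against 4.77% and 4.43% of all genes). The list's median log2 fold change was 0.70. Tnc, tenascin C, was at 14.42, 13.1 and 7.434 CPM and then at 82.44, 87.19 and 74.31 CPM (log2 fold change 2.79 ± 0.39, adjusted p = 0.0226). Col16a1, a fibril-associated collagen, was at 1.803, 1.008 and 0.6195 CPM and then at 28.29, 9.625 and 27.02 CPM. Timp2, an inhibitor of metalloproteases, was at 5.859, 1.008 and 1.858 CPM and then at 33.14, 42.46 and 38.28 CPM (log2 fold change 3.64 ± 0.60, adjusted p = 0.0438). Timp2 was the only one of 25 plasminogen activator, metalloprotease and inhibitor genes that passed without the block, where the median was 0.11, and 5 passed higher and 1 lower with it. Lamb1 and Col27a1 were called with the block only.

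Markers of stellate cells and fibroblasts moved with this list. Of 15 such markers 7 could be tested, and 0 passed without the block and 4 (57.1%) passed higher with it. Without the block 2 were higher at an unadjusted p under 0.05, and 1 passed in DESeq2. Their summed level was 146.5, 98.24 and 73.1 CPM at 4 days and 422.7, 176.6 and 128 CPM at 7 days. Col1a1 accounted for little of the sum, at 1.803, 1.008 and 0 CPM and then 25.06, 16.99 and 7.131 CPM (called with the block only). Col1a2 and Col3a1 passed higher with the block only. Col1a2 was at 5.859, 5.038 and 0 CPM and then at 10.1, 20.38 and 4.879 CPM. Col3a1 was at 7.662, 10.08 and 0.6195 CPM and then at 16.17, 50.96 and 5.63 CPM. Ecm1, which did not pass, and Acta2, which passed higher with the block only, made up most of the sum in replicate 1. The stellate markers Lrat, Reln, Ngfr and Hgf were at 0 to 1.803 CPM in every library. In the 7-day DMSO cultures described below, the summed stellate and fibroblast level was only 51.01 and 40.88 CPM, scaled over all time points. On that scale it was 58.31 to 119.8 CPM at 4 days and 102 to 337.7 CPM in the untreated 7-day cultures. Endothelial markers summed to 115.8, 63.48 and 42.12 CPM and then to 86.49, 31.71 and 15.39 CPM, and macrophage markers to 145.1, 152.7 and 92.3 CPM and then to 237.2, 210.6 and 55.55 CPM. Whether other cells contributed to the change in matrix genes was not tested, and in bulk RNA more cells of a type cannot be told apart from more RNA per cell.

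Epithelial and progenitor genes moved in parts. Of 25 cholangiocyte and progenitor markers 1 was called higher, and 8 (32%) passed higher and 0 lower with the block. The 1 was Bicc1, an RNA-binding protein of ducts and renal tubules, at 60.39, 53.4 and 53.27 CPM and then at 216.6, 240.6 and 234.2 CPM (log2 fold change 2.05 ± 0.30, adjusted p = 0.0267). Krt7 and Krt19, keratins of bile ducts, passed with the block only. Cldn6, a tight junction gene of fetal epithelia, was at 10.82, 12.59 and 15.49 CPM and then at 143.9, 53.22 and 99.83 CPM (log2 fold change 2.93 ± 0.46, adjusted p = 0.0375). Cdh17, a liver and intestine cadherin, was called higher, whereas Cdh1, the epithelial cadherin, was at 485.2 to 708.7 CPM at 4 days and at 548.7 to 711.7 CPM at 7 days. Of 55 mesenchymal and cytoskeletal genes 1 was called higher, the actin bundler Fscn1, and 13 (23.6%) passed higher and 1 (1.82%) lower with the block. Vim, vimentin, was at 386.7, 406.1 and 282.5 CPM and then at 599.3, 764.9 and 543.1 CPM, with no overlap, and did not pass in either fit (adjusted p = 0.3995, and 0.1024 with the block).

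Cell cycle genes were mostly lower at 7 days, but few passed without the block. Of 59 genes of DNA replication and S phase 0 passed in edgeR without it, where 24 had an unadjusted p under 0.05 with a lower level, and DESeq2 passed 6 and limma-voom 0. Of the 59, 58 had a log2 fold change under 0 and the median was -1.08. With the block 28 of them passed lower (47.5%, against 4.43% of all genes) and 0 passed higher. Of 81 genes of mitosis and G2/M 2 passed lower without the block, 78 had a log2 fold change under 0 and the median was -1.01. With the block 41 passed lower (50.6%) and 0 passed higher. These counts depended on the pairs: with replicate pair 1 left out 14 S phase and 32 mitosis genes passed lower, and with pair 3 left out 11 and 18. The S phase sum was 3794, 3643 and 2675 CPM at 4 days and 2150, 1799 and 1513 CPM at 7 days, and the mitosis sum was 9067, 7525 and 6510 CPM and then 5754, 3493 and 3549 CPM. For both sums every 7-day library lay below every 4-day library.

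Melk and Pbk, kinases of dividing cells, were the 2 that passed without the block. Melk was at 59.04, 75.07 and 43.36 CPM and then at 8.891, 11.32 and 15.39 CPM (log2 fold change -2.31 ± 0.40, adjusted p = 0.0562). Mki67, the antigen of dividing cells, was at 459.7, 415.6 and 535.8 CPM and then at 64.66, 250.8 and 145.2 CPM, with a log2 fold change of -1.62 (adjusted p = 0.277, and 0.00685 with the block). Ccna2, the S and G2 cyclin, was at 163.6, 186.9 and 102.8 CPM and then at 48.9, 62.28 and 29.27 CPM (adjusted p = 0.177, and 0.00174 with the block). Single members differed. Mcm2, a subunit of the replicative helicase, was at 37.41, 40.3 and 21.68 CPM and then at 46.07, 16.42 and 32.28 CPM. Genes of the G1 phase were on the higher side. Of 38 G1 and p53 genes 1 was called higher, 7 (18.4%) passed higher with the block and 0 passed lower in either fit. The D cyclin gene Ccnd2 was at 224, 249.9 and 206.9 CPM and then 600.2, 835.7 and 501 CPM (adjusted p = 0.103, and 0.00554 with the block). Cdkn2b, an inhibitor of the D cyclin kinases, was at 43.72, 117.4 and 102.8 CPM and then 157.2, 399.1 and 206.8 CPM (adjusted p = 0.334, and 0.00458 with the block). Pmaip1, a p53 target that promotes cell death, was the gene called higher, at 14.87, 15.11 and 16.11 CPM and then 70.32, 71.9 and 61.55 CPM.

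Promoters of late cell cycle genes are known to carry the string TTTGAA, called CHR, and the CCAAT box. Counted on both strands in the 250 bases before the RefSeq start, TTTGAA was present in 26 of the 67 mitosis genes with a window (38.8%), against 16.3% of all windows and 10.1% of the windows of genes tested, and CCAAT in 67.2% against 34.5% and 37%. In the 46 S phase genes with a window TTTGAA was present in 6 (13%) and the E2F-type string TTTCCCGC in 6 (13%), the latter against 0.929% of all windows and 1.98% of those of genes tested. Short stretches are shown for 4 mitosis genes that hold TTTGAA, in capitals, on the gene's strand. These stretches were chosen by p with the block, but not from every holder of the string, so holders with a smaller p may be missing. They were read from the gene's strand, for Mki67 at chr7:135716460-135716489, for Cdc20 at chr4:118437344-118437373 and for Arhgap11a at chr2:113848743-113848772, all minus, and for Ncapg at chr5:45669883-45669912, plus.
Mki67: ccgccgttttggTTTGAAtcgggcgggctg
Cdc20: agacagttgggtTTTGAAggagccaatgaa
Arhgap11a: aagggtcctcatTTTGAAaacaggagcggg
Ncapg: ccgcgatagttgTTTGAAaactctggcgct

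**Figure D3:**
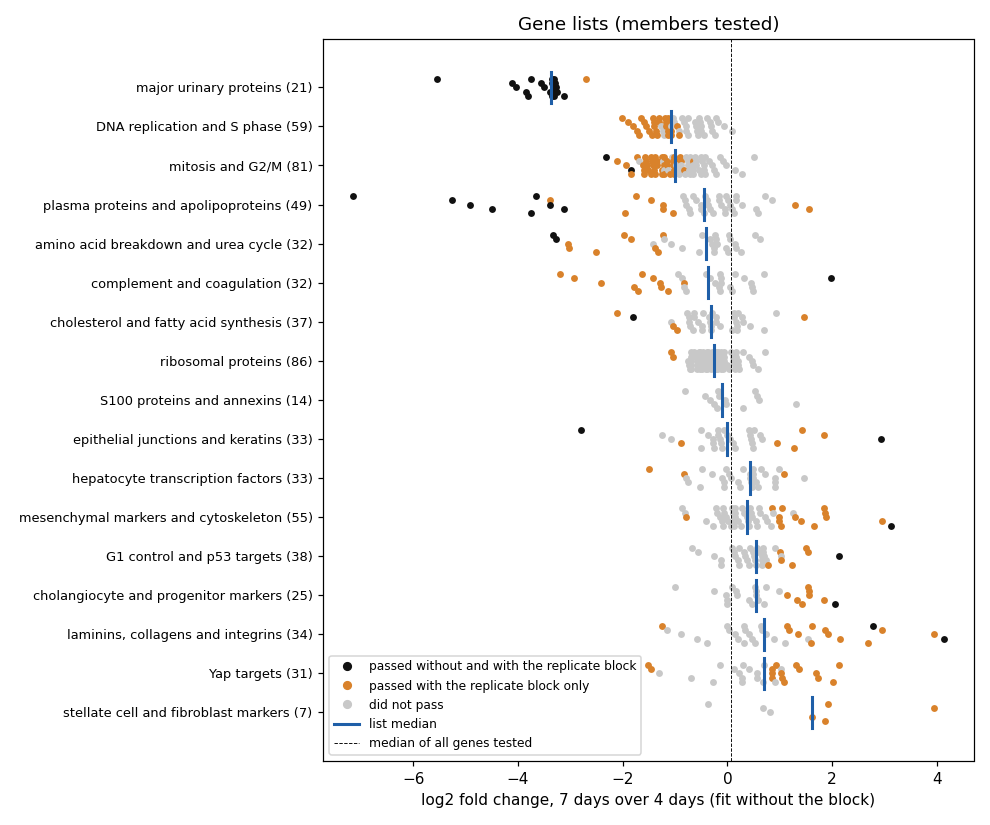
Log2 fold change of 7 days over 4 days for each tested member of 17 gene lists, from the fit without the block. Black points passed without and with the block, orange points passed with the block only, grey points did not pass, and blue bars are list medians. Nearly all cell cycle genes lie left of the dashed median of all genes, with 0 black points in S phase and 2 in mitosis.

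Yap is a coactivator held in check by the Hippo pathway, and Ccn1 and Ccn2 are 2 of its best known targets. Ccn1 was at 72.11, 572.3 and 65.04 CPM at 4 days and at 42.84, 903.6 and 101.3 CPM at 7 days, so that replicate 2 was the highest at both times. Ccn2 had the same order, with 117.6, 599 and 107.8 CPM and then 175, 870.8 and 176.8 CPM, and neither gene passed in either fit. A list of Yap targets had 31 genes tested, and besides targets it was drawn to hold Yap1, Wwtr1, Tead1 to Tead4, Vgll3 and Vgll4. Of the 31, 0 passed without the block, and 13 (41.9%) passed higher and 2 (6.45%) lower with it. The median log2 fold change was 0.70. With pair 3 left out 4 passed higher and 1 lower, and without the block 10 were higher and 2 lower at an unadjusted p under 0.05 and DESeq2 passed 4 higher. Tead2, which encodes a DNA-binding partner of Yap, was called with the block, at 38.76, 20.15 and 35.93 CPM and then at 232, 63.41 and 120.9 CPM. Txnip, which binds thioredoxin and is not in this list, was called with the block only. It was at 5.859, 35.77 and 10.53 CPM and then at 39.2, 203.3 and 149 CPM.

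Other lists gave few genes that passed. Of 33 immediate-early and AP-1 genes, 30 genes of EGF receptor ligands and feedback and 30 interferon-stimulated genes 0 passed without the block, and 4, 3 and 1 passed higher and 0, 1 and 1 lower with it. At an unadjusted p under 0.05 without the block these lists had 5, 2 and 1 higher and 0, 1 and 3 lower, and DESeq2 and limma-voom passed 0. Egfr, the receptor of the EGF in the medium, was at 131.6, 308.3 and 180.3 CPM and then at 217.8, 357.8 and 280 CPM (adjusted p = 0.780). Of 86 ribosomal protein genes 0 passed and 2 passed lower with the block, and of 93 nuclear genes of oxidative phosphorylation 0 and 3, with 6 and 3 lower at an unadjusted p under 0.05 and 0 passed by DESeq2 or limma-voom. Among S100 proteins and annexins 0 of 14 passed in either fit, and 0 had an unadjusted p under 0.05 without the block. Metallothionein Mt2, at 601.7, 673.6 and 892.7 CPM and then at 330.6, 203.8 and 255.6 CPM, passed with the block only. Among 32 complement and coagulation genes Cfi, which cleaves the complement protein C3b, passed higher, and was called with the block. It was at 18.48, 25.19 and 12.39 CPM and then at 68.7, 74.17 and 80.69 CPM. By contrast 11 members (34.4%) passed lower with the block.

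Signalling lists had counts of the same kind. Of 29 TGF-beta and BMP genes and 17 Wnt and Notch genes 0 passed without the block, and 6 and 3 passed higher and 1 and 0 lower with it. At an unadjusted p under 0.05 the first list had 6 higher and 1 lower and the second 0, and DESeq2 passed 1 and 0. Wls, which escorts Wnt ligands to the cell surface and is in neither list, was called higher at 8.563, 15.62 and 12.39 CPM and then at 52.54, 70.2 and 64.55 CPM (log2 fold change 2.35 ± 0.39, adjusted p = 0.0438). Bmp8b, a BMP ligand, was called lower with the block only, at 125.7, 59.45 and 37.79 CPM and then at 30.31, 9.059 and 12.39 CPM. Of 22 chemokine and NF-kB genes 0 passed without the block, where 5 were higher and 1 lower at an unadjusted p under 0.05 and DESeq2 passed 2 higher and 1 lower, and 6 passed higher and 2 lower with it, of which Csf1, Vcam1 and Ptgs2 were called higher. Of 159 solute carrier genes 0 passed without the block, where 15 were higher and 8 lower at an unadjusted p under 0.05 and DESeq2 passed 2 higher, and 12 passed higher and 5 lower with it. Slc43a2, an amino acid transporter, was called higher with the block only, at 22.98, 6.046 and 8.673 CPM and then 192.8, 22.65 and 75.81 CPM.

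The remaining lists add a few members. Of 27 retinoid and iron genes 1 was called in each direction, Dhrs3 and Dhrs9 above, and 4 passed higher and 5 lower with the block. Aldh1a3, which makes retinoic acid, was at 5.859, 5.038 and 6.195 CPM and then at 0, 0 and 0.7506 CPM, and Cyp26a1, which degrades it, was at 0.9014, 5.038 and 1.858 CPM and then at 13.74, 17.55 and 12.39 CPM. Both were called with the block only (adjusted p = 0.0129 and 0.00851), and for both the groups did not overlap. Of 37 genes of cholesterol and fatty acid synthesis Mlxipl alone passed without the block, and 4 passed lower and 1 higher with it. Of 40 NRF2 targets and metallothioneins, 44 genes of ER stress, 23 of hypoxia and 29 of fatty acid oxidation 0 passed without the block, where 4, 1, 2 and 0 were higher and 2, 2, 1 and 2 lower at an unadjusted p under 0.05. DESeq2 passed 2 higher and 1 lower in the first of these and 0 in the others. With the block 4, 2, 1 and 0 passed higher and 2, 3, 2 and 3 lower.

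The time course places the step, with levels scaled over all time points and therefore slightly lower than those above. It is given without a test because neighbouring steps share libraries. The Mup sum was 72660 to 90920 CPM in fresh hepatocytes, 20380 to 25430 CPM at 2 days, 8417 to 13010 CPM at 4 days, 641.4 to 1583 CPM at 7 days and 1.627 to 13.65 CPM at 14 days. Tff1 had a peak, with means of 0.367 ± 0.636 CPM (SD, n = 3) in fresh hepatocytes, 201.5 ± 138.4 CPM at 2 days, 303.1 ± 161.4 CPM at 4 days, 11.6 ± 8.22 CPM at 7 days and 3.23 ± 2.24 CPM at 14 days. The mitosis sum was 4308 to 6494 CPM at 2 days, 5193 to 7414 CPM at 4 days, 2793 to 4596 CPM at 7 days and 4360 to 6071 CPM at 14 days. The range at 7 days lay below that at 4 days. It overlapped those at 2 and 14 days, where 7 days replicate 1 lay above the lowest library. Lmcd1 had means of 0.39 ± 0.045 CPM at 2 days, 2.92 ± 1.77 CPM at 4 days, 84.3 ± 20.2 CPM at 7 days and 147.1 ± 41.7 CPM at 14 days. Timp2 had means of 2.36 ± 2.13, 30.3 ± 3.75 and 297.5 ± 41.5 CPM at 4, 7 and 14 days.

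**Figure D4:**
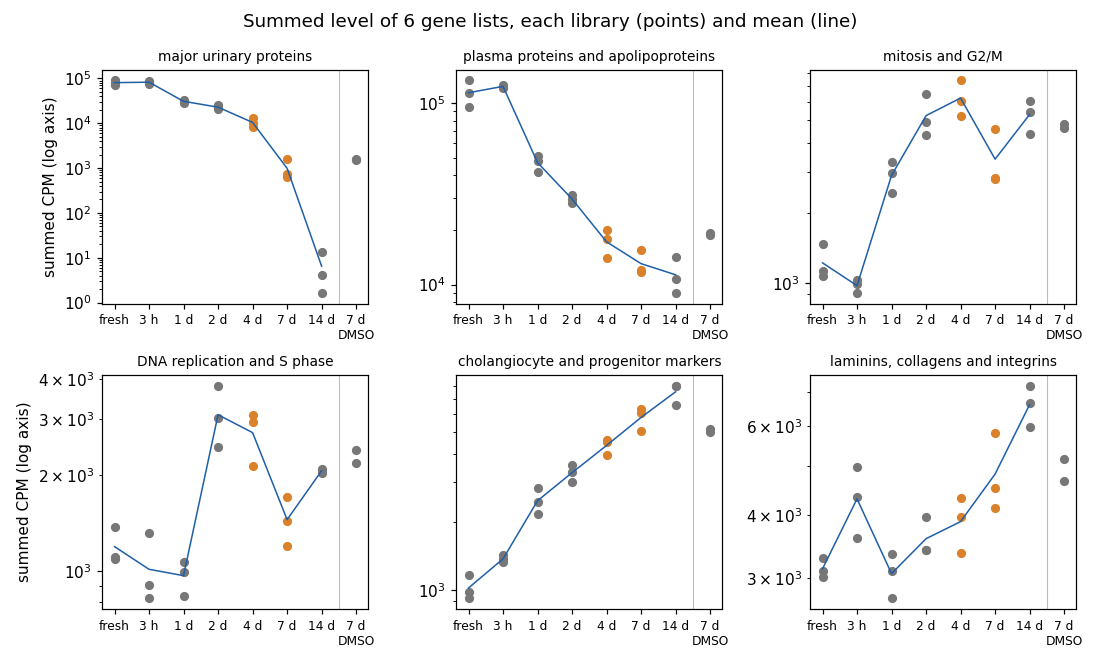
Summed CPM of 6 gene lists (log axis) in each library of fresh hepatocytes, of 6 culture times and of the 7-day DMSO cultures, with the mean over libraries as a line and the 4-day and 7-day libraries in orange. The Mup sum is lower at each later time from 1 day on, and the mean of both cell cycle sums is lower at 7 days than at 2, 4 or 14 days.

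The 2 libraries of hepatocytes cultured for 7 days with DMSO, the solvent control of another experiment, give a further set of values at the later time. Of the 33 genes called higher 29 lay above all 4-day libraries in both DMSO libraries, against 13.2% of all genes tested. Of the 33, 1 gene, Soga3, lay below them in both, at 2.373 and 4.658 CPM against 6.089 to 11.42 CPM at 4 days. Of the 47 called lower 45 lay below all 4-day libraries, against 15.6% of all genes, and 25 of 27 did without the Mup genes. These counts share the 4-day libraries with the comparison above. The levels were not the same: Lmcd1 was at 26.69 and 29.5 CPM with DMSO against a mean of 84.3 CPM in the untreated 7-day cultures, and Scn3b at 3.559 and 1.035 CPM against 10.4 CPM. Cell cycle genes differed too. Mki67 was at 507.8 and 408.3 CPM with DMSO, against means of 379.4 CPM at 4 days and 122.6 CPM at 7 days, and Melk at 40.34 and 38.3 CPM against 47.8 and 9.47 CPM. The mitosis sum was 4633 and 4799 CPM with DMSO, above all 3 untreated 7-day libraries and below all 3 at 4 days. The S phase sum was 2190 and 2399 CPM with DMSO, also above the untreated 7-day libraries (1205 to 1717 CPM). It lay within the range of the 4-day libraries (2134 to 3102 CPM).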

How the data were processed

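UMI counts per gene of 6 libraries were taken from a table deposited by the authors. Per the labels the reads were made with bcl2fastq 2.20, aligned to GRCm38 with Bowtie2 2.3.1 and counted with HTSeq 0.6.0; the annotation release is not given in the sources used here, and UMIs of 6 bases limit a gene to 4096 counts per library. Symbols and positions were taken from GENCODE M21 (45143 of 46078 identifiers matched). Here edgeR 4.0.16 in R 4.3.3 was run with filterByExpr (minimum count 10, minimum total 15), TMM factors, the quasi-likelihood test and Benjamini-Hochberg adjustment over 11073 genes. The script was tested on simulated data. The labels do not say whether replicates were separate animals, so p-values measure only the spread between these libraries.

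Libraries with the same replicate number deviated together (r = 0.64, 0.613 and 0.228 over 11073 genes, against -0.655 to 0.0824 for other pairs). Deviations from a group mean cancel out over its libraries, so these values are not independent of each other. The pairing was thus read from the data, since the labels do not say what the number marks. Common dispersion was 0.185 without and 0.0736 with the block.

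Named genes were the 12 called genes with the smallest p and the 5 others with the largest fold in each direction, the first 3 and up to 5 passing members per direction of each list, and genes whose call depended on a setting or library; others were chosen after their values were seen. Members and lists were chosen with earlier results of these data known. Alternatives were other size factors, DESeq2 1.42.0, limma-voom (limma 3.58.1), other filters and thresholds, all time points in 1 fit, thinned or UMI-corrected counts, the block and left-out libraries. Columns of other groups were used only for the time course, for the DMSO values and counts, and for the alternative fit of all time points. Some results are not reported here.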

Additional observations from a re-analysis of the deposited data

How the results depend on the processing

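Counts of calls (main value 80) and of genes that passed (90) moved with the test, the filter and the block; no called gene changed sign under any alternative. DESeq2 called 164 and passed 295, testing without the filter called 245 and passed 423, a fit of all time points called 215 and passed 423, and an FDR of 0.05 gave 53 for both. The glmTreat test against a log2 fold change of 1 called 35. The replicate block called 174 and passed 1019. Without 7 days replicate 2, 142 passed. Without 1 library the calls ranged from 0 to 130 and the passes from 0 to 152. Alternatives chosen after seeing the data all used the block: DESeq2 called 206 and passed 816, limma-voom called 165 and passed 1108, RLE size factors gave 175 and 1002, and leaving out 1 replicate pair gave 219, 324 and 200 calls and 600, 2261 and 445 passes for pairs 1, 2 and 3. The cause of these shifts was not tested, apart from the smaller common dispersion with the block. Limma-voom, RLE factors, library totals, the stricter filter, thinning, the UMI correction and a fold threshold of 1 left the count of calls within 1.5 times. Genes that did not pass and are named for their levels changed sign. With library totals Vsig4 had a log2 fold change of -0.029 (main value 0.04). With limma-voom Vsig4 had -0.51 and Marco -0.25 (main value 0.42), and with limma-voom and the block Vsig4 had -0.0022. Without 1 library the ranges were -0.12 to 3.29 for C1qc, -0.29 to 1.59 for Marco, -0.54 to 1.16 for Vsig4, -0.24 to 1.23 for Ecm1, -0.091 to 0.21 for Cdh1, -0.44 to 0.20 for Mcm2, -1.76 to 2.34 for Ccn1 and -0.69 to 1.84 for Ccn2. With the block and without 1 pair they were -0.56 to 0.95 for Vsig4, -0.088 to 0.85 for Ecm1, -0.21 to 0.29 for Cdh1, -0.45 to 0.39 for Mcm2 and -0.081 to 0.65 for Ccn1, which had -0.0098 without pair 3. The block also changed calls of named genes: Camk2n1 was called without it only, and genes such as Lamb1, Col1a1 and Tead2 were called with it only. Low counts limit the folds of genes with few molecules in 1 group, and near-identical genes cannot be separated by 3′ reads.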
